A study of Mus musculus with 20 samples.

Results

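The genes that display peptides on major histocompatibility complex (MHC) class I molecules were followed in 20 mouse macrophage RNA-seq libraries. They are 10 genes, chosen by name from the 56748 in the gene count tables: the heavy chains H2-K1, H2-D1, H2-T23 and H2-M3, the light chain gene B2m, the peptide transporter and loading genes Tap1, Tap2, Tapbp and Erap1, and the regulator gene Nlrc5. All 10 were counted in every library and entered the tests. The iNOS experiment held 12 libraries labelled as bone marrow-derived macrophages (BMDM), 3 from each of 4 groups: wildtype unstimulated, wildtype stimulated, iNOS KO unstimulated and iNOS KO stimulated. The iNOS KO lacks inducible nitric oxide (NO) synthase, encoded by Nos2, the enzyme with which activated macrophages make NO. By the labels, these cells came from wildtype C57BL/6J or iNOS KO males or females aged 6 to 12 weeks and were grown with 20 ng/mL M-CSF, and stimulation was 50 ng/mL lipopolysaccharide (LPS) with 30 ng/mL interferon gamma (IFNγ) for 48 h. For primary BMDM, the study's methods state that marrow was pooled by genotype and that the iNOS KO mice were of the strain B6.129P2-Nos2tm1Lau/J. If these libraries are of such cells, the 3 of a group do not stand for 3 mice. The same methods describe the iNOS RNA-seq in RAW264.7 cells, however. In that case a difference between the knockout line and the wildtype line could not be told apart from one of genotype. The Akr1a1 experiment held 8 libraries of the macrophage-like line RAW264.7, 2 from each of 4 groups: wildtype or Akr1a1 KO, unstimulated or given 50 ng/mL LPS with 10 ng/mL IFNγ for 48 h. For library B of both unstimulated groups the title says stimulated, while the treatment field and the library name say unstimulated, and the latter were followed. Nos2, which stimulation raised to 4155 CPM or more in this table, was at 30.7 and 38.1 CPM in these libraries. Akr1a1 encodes an aldo-keto reductase. The methods call the replicates biological in the iNOS experiment and independent clones in the Akr1a1 experiment, and the labels say nothing more of cultures or animals.

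Class I molecules show short peptides from inside the cell to CD8 T cells. Proteasomes cut proteins in the cytosol, the transporter made of Tap1 and Tap2 carries the peptides into the endoplasmic reticulum, tapasin (Tapbp) holds an empty class I molecule beside the transporter, and the aminopeptidase Erap1 trims peptides to length. The heavy chain folds with β2-microglobulin (B2m) and travels to the cell surface once a peptide is bound. IFNγ raises the whole pathway, in part through Irf1, and Nlrc5 acts at class I promoters together with RFX, CREB/ATF and NF-Y proteins. H2-K1 and H2-D1 are classical class I genes, H2-T23 encodes Qa-1, which presents peptides to NKG2 receptors and to some T cells, and H2-M3 presents N-formylated peptides of bacteria and mitochondria.

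Of the 10 genes, 7 lie on chromosome 17, in or next to the MHC. In the positions given by the count tables these were Tapbp at 34134873 to 34148266, H2-K1 at 34214991 to 34219321 (minus strand), Tap1 at 34406527 to 34416199, Tap2 at 34422501 to 34435295, H2-D1 at 35481706 to 35486475, H2-T23 at 36340665 to 36343747 (minus strand) and H2-M3 at 37581111 to 37585375. B2m lay on chromosome 2 at 121978167 to 121983564, Erap1 on chromosome 13 at 74787687 to 74841320 and Nlrc5 on chromosome 8 at 95160984 to 95253900, and all strands not given as minus were plus. The processing notes name mm10, but these positions are not those of mm10: the RefSeq promoter window of B2m in GRCm38.p6 starts at 122147437. The tables name no other build. Among the heavy chains, the open reading frames of H2-K1 and H2-D1 were 91.5% identical, those of H2-K1 and H2-T23 82.3%, and those of H2-M3 and the other 3 between 73.6% and 73.8%. Of the 100-base windows of the H2-D1 transcript, 4.64% also occurred in another gene (H2-Q1, Gm7030, H2-T23 or Gm11127), and 7.28% of those of H2-T23, while H2-K1 and H2-M3 had 0 such windows. Reads shared with these copies make the counts of H2-D1 and H2-T23 less certain. RAW264.7 came from a BALB/c mouse, whose class I alleles differ from the C57BL/6 reference, and the effect of such alleles on heavy chain counts was not tested. The libraries labelled BMDM did not show the markers of C57BL/6J marrow cells, as given below. Whether their heavy chain counts are affected in the same way was not tested either.

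The upstream sequences were searched for short patterns of letters, which some of these genes shared and others did not. RefSeq promoters of GRCm38.p6 were found for 8 of the 10 genes, with 2 starts for H2-K1. Nlrc5 and Tap2 had no entry. The 200 bases before the start are printed 5′ to 3′ for the 4 heavy chains and B2m. Capitals mark letters found on either strand: the NF-κB-like GGGANTNCC, the interferon-response-like GAAANNGAA, the X2-box-like TGACG and the CCAAT box (ATTGG when read from the other strand).
H2-K1 (chr17:34000334-34000533, minus strand): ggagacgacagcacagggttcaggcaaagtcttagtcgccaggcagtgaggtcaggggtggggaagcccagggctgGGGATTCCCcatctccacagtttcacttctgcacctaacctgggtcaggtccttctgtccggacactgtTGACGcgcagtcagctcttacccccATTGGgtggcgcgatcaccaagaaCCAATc
H2-D1 (chr17:35262894-35263093, plus strand): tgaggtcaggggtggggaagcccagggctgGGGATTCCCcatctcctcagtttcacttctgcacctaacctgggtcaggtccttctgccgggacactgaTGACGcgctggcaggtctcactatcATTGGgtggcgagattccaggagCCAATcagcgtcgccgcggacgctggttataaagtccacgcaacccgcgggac
H2-M3 (chr17:37270034-37270233, plus strand): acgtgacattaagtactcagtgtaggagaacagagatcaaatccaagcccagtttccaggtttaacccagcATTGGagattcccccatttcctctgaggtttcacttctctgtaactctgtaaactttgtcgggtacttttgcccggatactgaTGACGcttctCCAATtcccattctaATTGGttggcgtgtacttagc
B2m (chr2:122147487-122147686, plus strand): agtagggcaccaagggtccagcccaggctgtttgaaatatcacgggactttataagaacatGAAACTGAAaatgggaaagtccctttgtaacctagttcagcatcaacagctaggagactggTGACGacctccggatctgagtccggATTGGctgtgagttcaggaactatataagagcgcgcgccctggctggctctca
H2-T23 (chr17:36032702-36032901, minus strand): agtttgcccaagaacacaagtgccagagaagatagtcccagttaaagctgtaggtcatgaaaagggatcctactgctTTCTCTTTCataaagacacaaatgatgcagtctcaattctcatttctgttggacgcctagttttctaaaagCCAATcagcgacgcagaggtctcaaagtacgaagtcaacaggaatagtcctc
In H2-K1, H2-D1, H2-M3 and B2m, a TGACG was followed by ATTGG with 20 bases between them, at -55 in H2-K1, -101 in H2-D1, -46 in H2-M3 and -78 in B2m counted from the start. The gap of 20 bases was the one seen in H2-K1, so H2-K1 holds it by choice. This spacing was looked for after the sequences had been seen. It occurred in 4 of the 8 genes with a window, H2-K1 included. Over all 32851 windows in RefSeq, those of these genes included, it occurred in 0.0944%. Each window reached from 250 bases before the start to 50 after. These shares are not a test of enrichment. H2-T23, Tap1, Tapbp and Erap1 did not hold this spacing in their windows. The letters GGGANTNCC were found in H2-K1 and H2-D1 and in 3.95% of all windows. GAAANNGAA was found in B2m, H2-T23 and Erap1 and in 8.56% of all windows, TTCNNNGAA, an interferon-gamma-activated-site-like pattern, in H2-M3 and in 8.3%, TGACG in 5 of the 8 genes and in 20.8%, and CCAAT in 7 of the 8 and in 37.4%. A match describes letters and is not a measured binding site. Only these exact letters were counted, so a gene without a match may still hold a site of that kind. H2-K1, H2-D1 and H2-M3, for example, share the letters tttcacttct, which resemble the interferon-response-like pattern on the other strand but do not match it.

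Library depth ran from 15072109 to 18878107 counts in the iNOS experiment and from 11876719 to 44583327 in the Akr1a1 experiment. Values below are CPM after TMM scaling (a level, the count of a gene scaled to the same library size in all libraries), and levels of different genes are compared per kilobase of gene length. Of the targeted genes, Nos2 was at 11072 ± 618 CPM in stimulated wildtype and 891 ± 20.6 CPM in stimulated iNOS KO libraries (SD, n = 3), with 0 counts in the unstimulated iNOS KO. Akr1a1 was at 427 to 675 CPM in the wildtype RAW264.7 libraries and 21.8 to 370.4 CPM in the Akr1a1 KO libraries, the highest being stimulated library A and the lowest unstimulated library B. The 4 Akr1a1 KO libraries thus kept unequal amounts of the targeted transcript. The libraries labelled BMDM did not show the markers of C57BL/6J marrow cells. Pycard, which RAW264.7 does not transcribe, had 0 to 12 counts in them and 1 to 15 in the RAW264.7 libraries. H2-Ea, which C57BL/6 mice do not transcribe, had 135 to 141 counts in stimulated wildtype and 81 to 96 in stimulated iNOS KO libraries labelled BMDM, and 0 in all RAW264.7 libraries. The study's methods describe the iNOS RNA-seq as RAW264.7 cells, and these libraries are called by their label here. The Y-linked gene Ddx3y was at 13.5 to 55.1 CPM in the libraries labelled BMDM and at 0 in those of RAW264.7, so the cells of both tables were not alike. The iNOS KO stimulated library B stood apart from A and C, with a chi-square per gene of 28.8 and 36.8 against 2.65 to 7.74 in all other pairs of that table. The 9 macrophage markers summed to 8150 to 9137 CPM in stimulated wildtype and 12729 to 13565 CPM in stimulated iNOS KO libraries, with Mertk under 1 CPM in the latter, and to 8336 to 8685 CPM in unstimulated wildtype and 5893 to 6303 CPM in unstimulated iNOS KO libraries. Neutrophil markers summed to at most 1.22 CPM without stimulation and 35.8 to 62.1 CPM with it, nearly all S100a8, with Ly6g at 0. Fibroblast markers summed to 3.78 to 5.13 CPM in stimulated wildtype and 11.5 to 17.1 CPM in stimulated iNOS KO libraries, with Col3a1 at 0, lymphocyte markers to at most 1.11 CPM and dendritic cell markers to at most 4.06 CPM. Their part in the results was not tested.

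Without stimulation the 10 genes took 0.112% to 0.115% of all counts in wildtype libraries labelled BMDM, and with it 0.855% to 0.938%. In iNOS KO libraries the shares were 0.103% to 0.104% and 0.692% to 0.732%. Per kilobase, B2m was highest in every group, at 345 CPM per kb in unstimulated and 3902 CPM per kb in stimulated wildtype libraries. H2-D1 came next, at 140.1 and 1313 CPM per kb, then Tapbp at 32.4 and 301 CPM per kb, and neighbours down to this rank did not overlap between libraries. In stimulated wildtype libraries H2-K1 (201 CPM per kb), Tap1 (192) and H2-T23 (173) followed, and H2-K1 overlapped with Tap1. H2-M3 (83.6 CPM per kb) and Tap2 (80.2) overlapped, and Nlrc5 (37.6) and Erap1 (26.8) were lowest. In stimulated iNOS KO libraries H2-K1 stood below H2-T23 and Tap1, at 141 against 175 and 154 CPM per kb, though the libraries of H2-T23 and Tap1 overlapped, as did those of Tap1 and H2-K1.

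The first question was how the genes responded to LPS and IFNγ in wildtype cells and in cells without iNOS. All 10 rose in both genotypes in the quasi-likelihood test of edgeR, where p-values were adjusted by Benjamini-Hochberg and a gene was called below an adjusted p of 0.05. Of the 18691 genes tested, 32.4% were higher after stimulation in wildtype and 27.3% in iNOS KO libraries. The median log2 fold change of the 10 genes was 3.42 in wildtype and 3.08 in iNOS KO, against 0.07 and 0.00 over all genes. Tap1 changed most and Erap1 least in both genotypes.

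Among the classical heavy chains, H2-K1 was at 58.3, 53.5 and 61.9 CPM in unstimulated and 489, 669 and 611 CPM in stimulated wildtype libraries. In iNOS KO libraries it was at 51.0, 54.5 and 53.9 CPM and rose to 412, 447 and 388 CPM. All 3 stimulated iNOS KO libraries were below all 3 stimulated wildtype libraries, while the unstimulated ones overlapped. The rise was 10.2-fold in wildtype (log2 3.35, SE 0.105, adjusted p = 2.97e-14) and 7.82-fold in iNOS KO (log2 2.97, SE 0.103, adjusted p = 2.03e-13), and stimulated iNOS KO was lower than stimulated wildtype by 0.50 on the log2 scale (log2 fold change -0.50, SE 0.0945, adjusted p = 0.000264).

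H2-D1, the most abundant heavy chain, was at 359, 351 and 374 CPM in unstimulated wildtype and at 3027, 3475 and 3657 CPM in stimulated wildtype libraries. The iNOS KO values were 283, 293 and 292 CPM without and 2198, 2493 and 2151 CPM with stimulation. The genotypes did not overlap in either state. After stimulation the iNOS KO mean was 2281 ± 185 against 3386 ± 324 CPM in wildtype, a log2 fold change of -0.57 (SE 0.0713, adjusted p = 3.78e-06). Stimulation raised H2-D1 9.37-fold in wildtype (log2 3.23, SE 0.0776) and 7.88-fold in iNOS KO (log2 2.98, SE 0.0768).

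H2-T23, the Qa-1 gene, did not share this difference. It was at 17.1, 18.8 and 20.9 CPM in unstimulated and 469, 511 and 519 CPM in stimulated wildtype libraries, and at 19.4, 19.5 and 19.6 CPM and then 481, 563 and 474 CPM in iNOS KO libraries. The genotypes overlapped in both states. Its rise was 26.4-fold in wildtype and 26.0-fold in iNOS KO, the steepest of the heavy chains, and the genotypes differed by a log2 fold change of 0.02 after stimulation (95% interval -0.15 to 0.18, adjusted p = 0.876).

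H2-M3 showed the widest gap. It was at 17.4, 16.4 and 16.4 CPM in unstimulated wildtype and 15.6, 16.7 and 13.6 CPM in unstimulated iNOS KO libraries, which overlapped. After stimulation it reached 117, 116 and 127 CPM in wildtype but 51.7, 57.2 and 52.3 CPM in iNOS KO libraries. The iNOS KO was thus lower by a log2 fold change of -1.16 (SE 0.0799, adjusted p = 2.64e-09), or 2.24-fold. Its rise with stimulation was 7.18-fold in wildtype and 3.51-fold in iNOS KO. H2-M3 was the only one of the 10 genes to pass the study's added limit of a log2 fold change beyond 1 in this comparison, a limit that 8.87% of all genes passed in the lower direction.

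B2m, the light chain that all these heavy chains share, was at 292, 304 and 293 CPM in unstimulated and 3058, 3436 and 3574 CPM in stimulated wildtype libraries. In iNOS KO libraries it lay between 247 and 256 CPM (251 ± 4.58, SD, n = 3) and then at 2308, 2051 and 2335 CPM. The genotypes did not overlap in either state. Stimulation raised B2m 11.3-fold in wildtype (log2 3.50, SE 0.0718) and 8.90-fold in iNOS KO (log2 3.15, SE 0.0708). Stimulated iNOS KO was lower than stimulated wildtype by a log2 fold change of -0.59 (SE 0.0652, adjusted p = 9.34e-07).

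**Figure D1:**
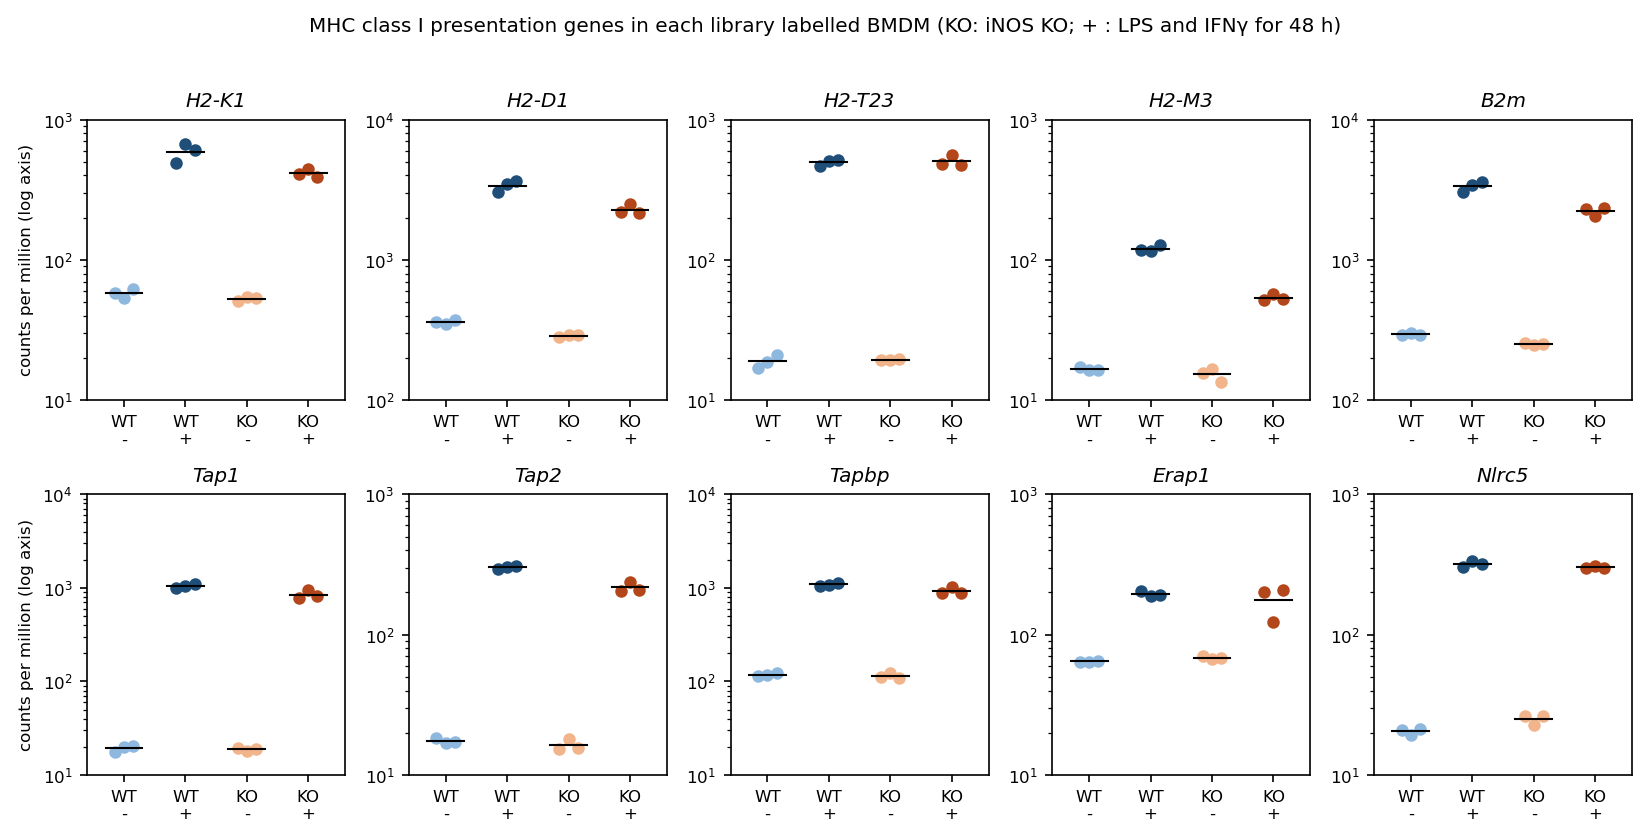
Level of each of the 10 genes in the 12 libraries labelled BMDM, in CPM on a log axis. Points are libraries and bars are group means (n = 3), for wildtype (WT) and iNOS KO (KO) without (-) and with (+) LPS and IFNγ. All genes are higher in stimulated libraries, and the stimulated iNOS KO points of H2-K1, H2-D1, H2-M3, B2m, Tap1, Tap2 and Tapbp lie below those of wildtype, while those of H2-T23, Erap1 and Nlrc5 overlap them.

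Tap1, a subunit of the transporter, had the steepest response of the 10 genes. It went from 17.6, 19.8 and 20.4 CPM to 1008, 1058 and 1095 CPM in wildtype libraries, a 54.7-fold rise (log2 5.77, SE 0.0927, adjusted p = 9.30e-18). In iNOS KO libraries it went from 19.5, 18.0 and 18.9 CPM to 777, 941 and 811 CPM, a 44.8-fold rise. Unstimulated libraries overlapped and stimulated ones did not, with a log2 fold change of -0.32 between stimulated genotypes (SE 0.0734, adjusted p = 0.00152).

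Tap2, the partner subunit, was at 18.5, 16.9 and 17.3 CPM in unstimulated and 295, 305 and 309.6 CPM in stimulated wildtype libraries. The iNOS KO values were 15.3, 17.9 and 15.5 CPM and then 205, 238 and 208 CPM, all below stimulated wildtype. The rise was 17.2-fold in wildtype and 13.4-fold in iNOS KO, and the stimulated genotypes differed by a log2 fold change of -0.48 (SE 0.0742, adjusted p = 3.72e-05).

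Tapbp, the gene of tapasin, started higher, at 115, 116 and 122 CPM in wildtype and 112, 122 and 109 CPM in iNOS KO libraries. Stimulated wildtype libraries held 1054, 1083 and 1137 CPM of it, and those of iNOS KO 873, 1016 and 872 CPM, which did not overlap. The difference was a log2 fold change of -0.25 (SE 0.0688, adjusted p = 0.00688). It was -0.17 with an adjusted p of 0.0936 by the same edgeR test when only the 2 stimulated groups entered the fit, so this call depends on the libraries fitted.

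Erap1, the trimming aminopeptidase, had the weakest response. It was at 64.3, 63.6 and 65.4 CPM in unstimulated and 204, 189.6 and 192 CPM in stimulated wildtype libraries, a 3.03-fold rise (log2 1.60, SE 0.137, adjusted p = 1.93e-08). In iNOS KO libraries it was at 70.2, 67.1 and 68.1 CPM without and 202, 122 and 207 CPM with stimulation. The low value was that of library B, which stood apart over all genes. The stimulated genotypes overlapped, with a log2 fold change of -0.14 (95% interval -0.42 to 0.14, adjusted p = 0.419), and of 0.07 without library B (adjusted p = 0.325).

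Nlrc5, whose protein acts at class I promoters, was at 20.9, 19.3 and 21.3 CPM in unstimulated and 305, 336 and 317 CPM in stimulated wildtype libraries, a 15.6-fold rise (log2 3.96, SE 0.0806). It was at 26.3, 22.5 and 26.5 CPM in unstimulated and 301, 309.8 and 297 CPM in stimulated iNOS KO libraries, a 12.0-fold rise (log2 3.59, SE 0.0786). The iNOS KO was above wildtype in each unstimulated library, and stimulated libraries overlapped, with a log2 fold change of -0.08 (95% interval -0.22 to 0.07, adjusted p = 0.382).

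Set side by side after stimulation, 7 of the 10 genes were lower in iNOS KO than in wildtype and 0 were higher, while 24.2% of all genes tested were lower and 24.2% higher. The median log2 fold change of the 10 was -0.40, against -0.04 over all genes. Leaving out any library of the experiment in turn kept the count of lower genes at 7. Without the iNOS KO stimulated library B the log2 fold changes of those 7 genes ran from -1.21 for H2-M3 to -0.32 for Tapbp. In bulk RNA, less RNA per cell and fewer cells that express a gene cannot be told apart.

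**Figure D2:**
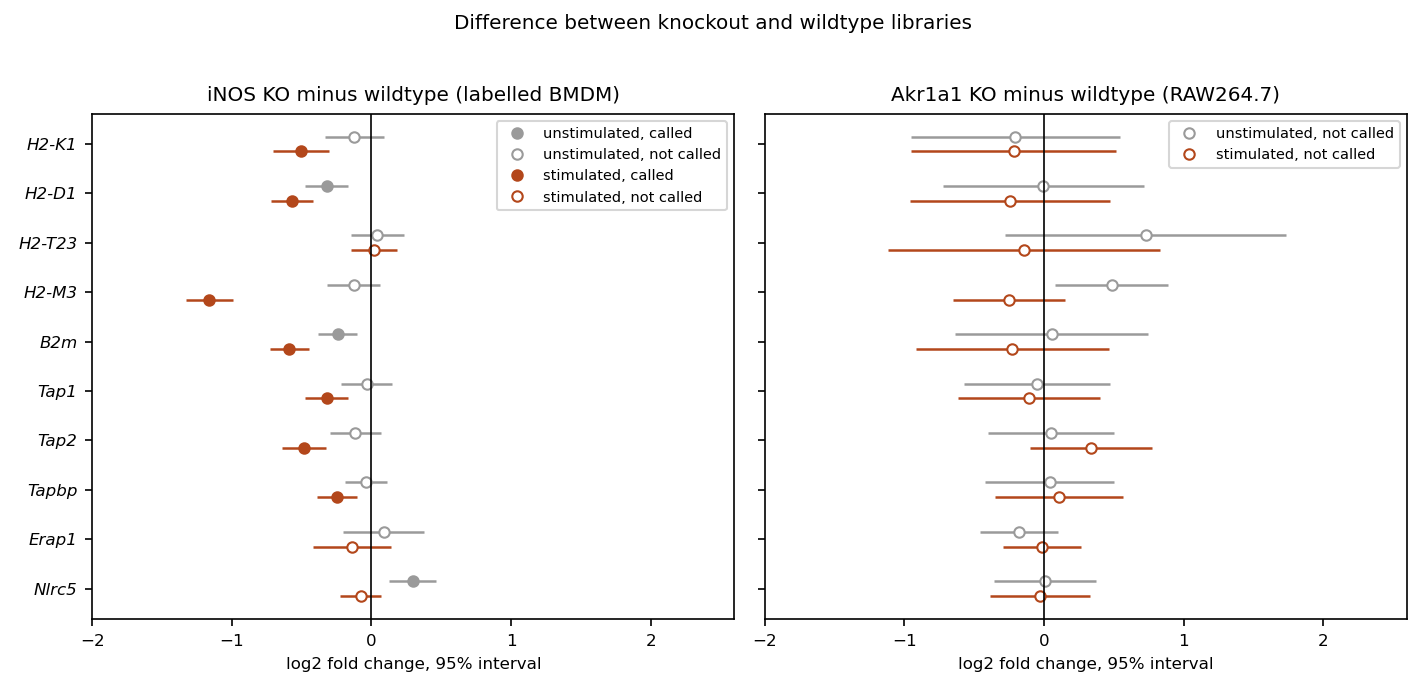
Log2 fold change between knockout and wildtype libraries with its 95% interval, for the iNOS experiment (left) and the Akr1a1 experiment (right), unstimulated in grey and stimulated in orange. Filled points are called at an adjusted p under 0.05. In stimulated iNOS KO libraries 7 of the 10 genes are called and lie left of 0, with H2-M3 farthest, at -1.16. Erap1 and Nlrc5 also lie left of 0 but are not called. In the Akr1a1 experiment 0 are called and the intervals are wider for all genes but Erap1.

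Whether the response to stimulation itself differed between genotypes was tested as an interaction, the log2 response in iNOS KO minus that in wildtype. It was negative for all 10 genes and called for 5, H2-K1, H2-M3, B2m, Tap2 and Nlrc5, while 15.4% of all genes were called lower and 20% higher. The 5 values were -0.38 for H2-K1 (SE 0.137, adjusted p = 0.0396), -1.03 for H2-M3 (SE 0.119, adjusted p = 2.90e-06), -0.35 for B2m (SE 0.0924, adjusted p = 0.00709), -0.37 for Tap2 (SE 0.114, adjusted p = 0.0185) and -0.37 for Nlrc5 (SE 0.104, adjusted p = 0.00981). H2-D1 (-0.25, adjusted p = 0.0669), Tap1 (-0.29, adjusted p = 0.0586), Tapbp (-0.21, adjusted p = 0.122), Erap1 (-0.23, adjusted p = 0.403) and H2-T23 (-0.02, adjusted p = 0.921) were not called by edgeR. H2-D1 and Tap1 lay near the threshold. DESeq2 called H2-D1 (adjusted p = 0.0497), and edgeR called both with the size factors of DESeq2 (0.0482 and 0.0456) and with no filter on low counts (0.0242 and 0.0360). Without the iNOS KO stimulated library B 8 genes were called, H2-D1, Tap1 and Tapbp being added, and without the iNOS KO unstimulated library B 3 were called. H2-K1 lost its call without any of 8 of the 12 libraries, each in turn (adjusted p up to 0.122), and Tap2 lost it without the iNOS KO unstimulated library B (-0.29, adjusted p = 0.0658). For Nlrc5 the interaction joined a higher unstimulated level in iNOS KO with stimulated levels that overlapped.

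Before stimulation the genotypes differed little. H2-D1 was lower in iNOS KO by a log2 fold change of -0.32 (SE 0.0718, adjusted p = 0.0107) and B2m by -0.24 (SE 0.0658, adjusted p = 0.0375), and Nlrc5 was higher by 0.30 (SE 0.0782, adjusted p = 0.0326). Of all genes, 4.09% were lower and 1.88% higher. These 3 calls were not firm. H2-D1 lost its call without wildtype unstimulated library C (adjusted p = 0.0700) or iNOS KO unstimulated library A (0.0637). B2m lost it without any of 6 unstimulated libraries, or without wildtype stimulated library B or iNOS KO stimulated library A (adjusted p from 0.0567 to 0.142), and Nlrc5 without any unstimulated library but iNOS KO library B (0.0673 to 0.167). The other 7 genes had log2 fold changes from -0.13 for H2-M3 to 0.09 for Erap1 and were not called.

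The rest of the pathway was counted in lists of related genes. Of 15 other class I heavy chains and class I-like genes tested, 13 rose and 2 fell with stimulation in wildtype libraries, where 32.4% of all genes rose and 28.5% fell. The median log2 fold change was 3.41. The largest rises were those of H2-Q7 (log2 6.76, from 0 to 3 counts per unstimulated library), H2-M2 (6.64) and H2-Q4 (4.52, SE 0.0790). Between stimulated genotypes 7 of the 15 were lower in iNOS KO and 3 higher, against 24.2% of all genes in each direction, with a median of -0.53. H2-Q4 was at 574 ± 16.9 CPM in wildtype and 291 ± 10.2 CPM in iNOS KO (log2 fold change -0.98, SE 0.0673, adjusted p = 2.63e-09). Mr1, which presents vitamin B metabolites to MAIT cells, was lower by a log2 fold change of -1.53 (SE 0.136, adjusted p = 6.85e-08). Cd1d1, which presents lipids to NKT cells, was higher by 1.90 (SE 0.340, adjusted p = 0.000167) at levels of 0.984 CPM in wildtype and 3.68 CPM in iNOS KO.

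In the list of loading complex and endoplasmic reticulum chaperone genes, most fell with stimulation in wildtype libraries but not in iNOS KO libraries. The list holds chaperones that are not particular to class I. Of 12 loading complex and chaperone genes of the endoplasmic reticulum, 10 fell and 2 rose in wildtype (median log2 fold change -0.58), where 28.5% of all genes fell and 32.4% rose. In iNOS KO 4 fell and 6 rose (median 0.11), where 24.6% of all genes fell and 27.3% rose. In the interaction 8 of the 12 were called higher and 2 lower, against 20% and 15.4% of all genes. Tapbpl, a peptide editor related to tapasin, rose (log2 4.38, SE 0.0973), and the disulfide isomerase Pdia6 (log2 fold change -1.99, SE 0.0603) and the chaperone Hsp90b1 (-1.80, SE 0.155) fell. In stimulated iNOS KO libraries 9 of the 12 were higher than in wildtype, against 24.2% of all genes, and 2 lower, with a median of 0.68. Pdia6 was higher by 2.03 (SE 0.0604, adjusted p = 8.11e-14), Pdia4 by 1.63 (SE 0.0660) and Hsp90b1 by 1.40 (SE 0.154). Calr and Pdia3, members of the loading complex itself and named after their values were seen, were higher by 0.85 and 0.88, and Tapbpl was lower by a log2 fold change of -0.58 (SE 0.0804).

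Genes of peptide supply in the cytosol mostly rose with stimulation, and after it most were higher in iNOS KO libraries. Of 15 genes tested, 10 rose and 4 fell in wildtype, where 32.4% of all genes rose and 28.5% fell. The part that fell was thus near that of all genes. In iNOS KO 11 rose and 1 fell, where 27.3% of all genes rose and 24.6% fell. In wildtype Psmb9 (log2 3.91), Psme2 (3.09) and Psmb10 (2.89) rose most. After stimulation 13 were higher in iNOS KO than in wildtype and 2 lower, against 24.2% of all genes in each direction, with 0.50 as the median log2 fold change. The immunoproteasome subunits, which replace the standard catalytic subunits under IFNγ, were among them. Psmb8 was at 232 ± 13.4 CPM in stimulated wildtype and 365 ± 41.2 CPM in stimulated iNOS KO libraries (log2 fold change 0.65, SE 0.0788). Psmb10 was at 251 ± 15.4 and 382 ± 37.9 CPM (0.61, SE 0.0779), and Psmb9 at 178 ± 12.0 and 219 ± 19.1 CPM (0.30, SE 0.0807, adjusted p = 0.00552). Lap3, Thop1 and Blmh, peptidases of the cytosol, were higher by 1.26, 1.26 and 0.89. Psmb9 and Tap1 are neighbours on chromosome 17 that share a promoter region, and in these libraries they differed between genotypes in opposite directions. The interaction was called higher for 11 of the 15 genes and lower for 0, against 20% and 15.4% of all genes.

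Of 23 regulators, 14 rose and 7 fell with stimulation in wildtype libraries, where 32.4% of all genes rose and 28.5% fell. Irf1, an activator of class I and Tap1 transcription, rose from 9.88 ± 0.673 to 1595 ± 78.9 CPM (log2 7.34, SE 0.115). Ciita (8.44, from 0 to 2 counts per unstimulated library) and the feedback inhibitor gene Socs1 (6.56) were the other leading rises. Irf1 was lower in stimulated iNOS KO by a log2 fold change of -0.79 (SE 0.0841, adjusted p = 5.54e-07). Ciita, the class II relative of Nlrc5, was at 21.3 CPM in stimulated wildtype and 8.79 CPM in stimulated iNOS KO (-1.29, SE 0.167). The kinase gene Jak1 was lower by a log2 fold change of -1.07 (SE 0.0676), and Ezh2, a histone methyltransferase, was higher by 1.71 (SE 0.111). Rfx5, which binds the X box, rose a little with stimulation (log2 0.56, SE 0.111) and had a log2 fold change of 0.21 between stimulated genotypes (adjusted p = 0.119). In all, 7 regulators were lower and 5 higher in stimulated iNOS KO, with a median of -0.12, shares near the 24.2% of all genes in each direction. The receptor list also holds Cd47, no class I receptor, and whether Lilrb4a and Lilrb4b bind class I molecules was not tested. Of the 6 genes of this list that were tested, 5 rose with stimulation in wildtype, led by Pira2 (2.51), Lilrb4b (2.15) and Cd47 (1.85). In stimulated iNOS KO 5 were lower and 0 higher, against 24.2% of all genes in each direction. Among the 5 were Pirb, an inhibitory receptor that binds class I molecules (log2 fold change -0.79, SE 0.115), Lilrb4b (-0.99, SE 0.155) and Pira2 (-1.52, SE 0.464).

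**Figure D3:**
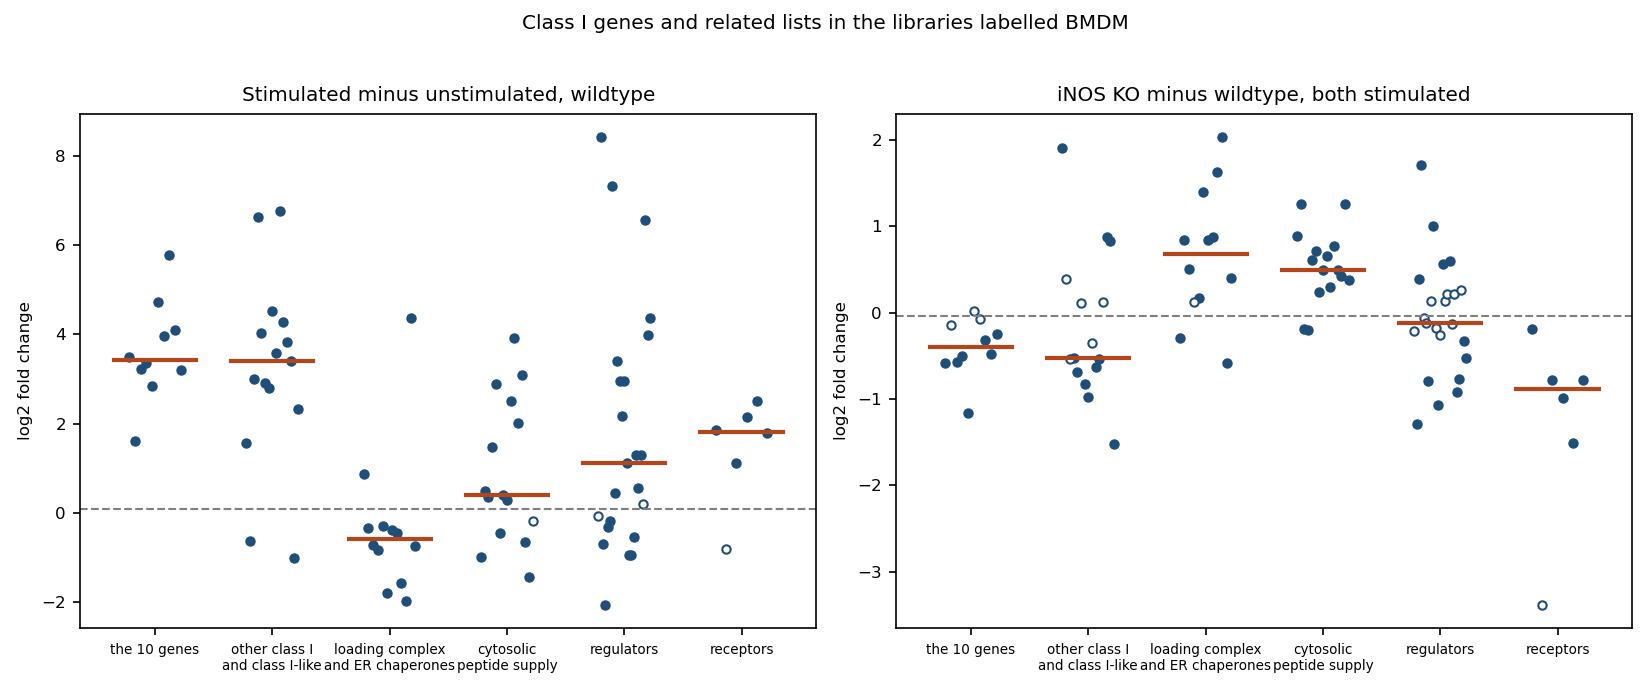
Log2 fold changes of the 10 genes and of the related lists in the libraries labelled BMDM, for stimulation in wildtype (left) and for iNOS KO against wildtype after stimulation (right). Points are genes, filled where called at an adjusted p under 0.05, orange bars are list medians and the dashed line is the median of all genes tested. On the right, the median of the 10 genes is -0.40, below the dashed line, and those of the chaperones (0.68) and the cytosolic peptide supply (0.50) are above it.

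The Akr1a1 experiment asked the same questions of RAW264.7 cells with and without Akr1a1. All 10 genes rose with stimulation in both genotypes in the same edgeR test, where 18.5% of all 19569 genes tested were higher in wildtype and 19.8% in Akr1a1 KO libraries. The 10 genes had a median of 2.51 in wildtype and 2.47 in Akr1a1 KO on the log2 scale, against -0.03 and 0.02 over all genes. Neutrophil markers, nearly all S100a8, summed to 120.7 to 144.7 CPM in stimulated wildtype and 248 to 420 CPM in stimulated Akr1a1 KO libraries, and macrophage markers to 12229 to 12440 and 5294 to 9240 CPM. Their part was not tested. The dose of IFNγ differed from that of the iNOS experiment, so the values stand side by side without a test. Tap1 again changed most in wildtype, from 30.8 and 46.1 CPM to 491 and 549 CPM (log2 3.75, SE 0.249, adjusted p = 1.61e-05), and Erap1 least, from 75.0 and 90.6 CPM to 141 and 138 CPM (0.75, SE 0.122, adjusted p = 0.00164). In Akr1a1 KO libraries Tap1 went from 41.2 and 33.5 CPM to 411 and 554 CPM, and Erap1 from 73.5 and 72.9 CPM to 139 and 137 CPM. For both genes the stimulated libraries of the genotypes overlapped.

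H2-K1 was at 40.3 and 57.4 CPM in unstimulated and 211 and 329 CPM in stimulated wildtype libraries, and at 44.6 and 40.5 CPM and then 160.3 and 304 CPM in Akr1a1 KO libraries. H2-D1 was at 137 and 207 CPM and then 1103 and 1584 CPM in wildtype libraries, while Akr1a1 KO libraries had 200.4 and 143 CPM and then 859.7 and 1415 CPM. B2m went from 244 and 409 CPM to 1712 and 1964 CPM in wildtype and from 392 and 288 CPM to 1209 and 1930.4 CPM in Akr1a1 KO. In all 3 genes the genotypes overlapped in both states, and library A of stimulated Akr1a1 KO was the lowest of the 4 stimulated libraries.

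H2-T23 was at 15.3 and 26.5 CPM in unstimulated and 290.0 and 199 CPM in stimulated wildtype libraries. In Akr1a1 KO libraries it was at 49.7 and 21.0 CPM and then 168 and 276 CPM. The unstimulated Akr1a1 KO libraries thus differed from each other more than the group means did. H2-M3 was far higher for its length than in the libraries labelled BMDM, second to B2m among the 10 without stimulation though overlapping with H2-D1 in wildtype, with 82.2 CPM per kb in wildtype and 115 CPM per kb in Akr1a1 KO against 11.6 CPM per kb in unstimulated wildtype labelled BMDM. Wildtype libraries held 140.1 and 96.2 CPM without and 326 and 299 CPM with stimulation, and those of Akr1a1 KO 162 and 168 CPM and then 253 and 272 CPM. The genotypes did not overlap in either state, but edgeR called no difference (adjusted p = 0.498 without and 0.638 with stimulation). With 2 libraries per group such a gap says little, and the share of all genes with one was not counted. The rise of H2-M3 in Akr1a1 KO was a log2 fold change of 0.67 (SE 0.176, adjusted p = 0.0167), which lost its call without any of the 4 Akr1a1 KO libraries (0.63 to 0.71, adjusted p from 0.0622 to 0.0896).

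Among the processing genes, Tap2 was at 14.2 and 18.4 CPM and then 92.4 and 122 CPM in wildtype libraries, while Akr1a1 KO libraries had 15.6 and 18.3 CPM and then 122 and 149 CPM. Tapbp was at 119 and 142 CPM and then 344 and 423 CPM in wildtype libraries, while Akr1a1 KO libraries had 157 and 112 CPM and then 372 and 453 CPM. Nlrc5 was at 42.5 and 54.5 CPM and then 277 and 288 CPM in wildtype libraries, while Akr1a1 KO libraries had 54.0 and 43.9 CPM and then 266 and 287 CPM. The genotypes overlapped in both states for each of these genes. For stimulated Tap2 the overlap was a near tie, with 122.08 CPM in wildtype library B and 122.07 CPM in Akr1a1 KO library A.

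**Figure D4:**
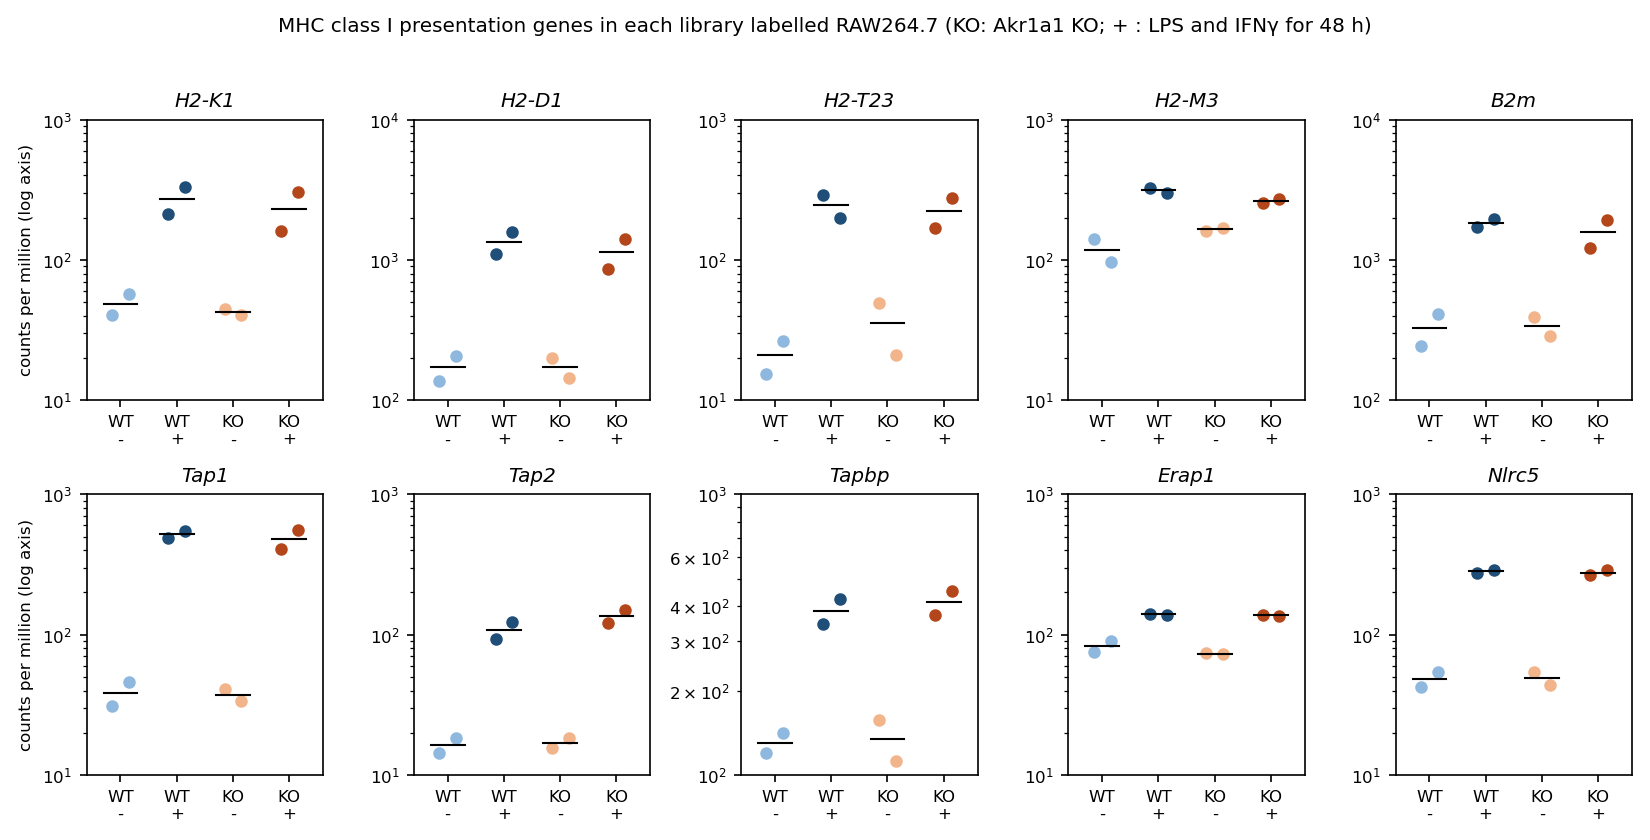
Level of each of the 10 genes in the 8 RAW264.7 libraries, in CPM on a log axis. Points are libraries and bars are group means (n = 2), for wildtype (WT) and Akr1a1 KO (KO) without (-) and with (+) LPS and IFNγ. All genes are higher in stimulated libraries, and knockout and wildtype points overlap in most panels, with a gap for H2-M3 in both states and for Erap1 without stimulation. None of these gaps is called at an adjusted p under 0.05 by edgeR.

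None of the 10 genes was called between Akr1a1 KO and wildtype by edgeR, either without stimulation, where 0.583% of all genes were called, with stimulation, where 0.286% were, or in the interaction, where 0.0204% were. At an unadjusted p under 0.05, H2-M3 alone of the 10 passed without stimulation and in the interaction, and 0 passed with stimulation. DESeq2 also called 0 in the 3 tests, and so did edgeR without stimulated Akr1a1 KO library A, which held the most Akr1a1, or without either unstimulated library B, each in turn. With no filter on low counts H2-T23 was called higher without stimulation (0.71, adjusted p = 0.00212) and lower in the interaction (-0.85, adjusted p = 0.0425). The 95% intervals are wide. After stimulation they ran from -0.95 to 0.52 for H2-K1, -0.96 to 0.47 for H2-D1, -0.92 to 0.46 for B2m and -1.11 to 0.83 for H2-T23, so log2 differences of the size seen for iNOS KO in H2-K1, H2-D1 and B2m lie inside them. They were narrower for Nlrc5 (-0.39 to 0.33), Erap1 (-0.30 to 0.26), Tap1 (-0.62 to 0.40), Tap2 (-0.10 to 0.77), Tapbp (-0.35 to 0.56) and H2-M3 (-0.65 to 0.15). Without stimulation H2-M3 had a log2 fold change of 0.48 (SE 0.176, adjusted p = 0.498) and in the interaction one of -0.74 (SE 0.248, adjusted p = 0.871).

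The related lists in RAW264.7 were also led by stimulation. In wildtype, 18.5% of all genes rose and 19.2% fell. Of 14 other class I and class I-like genes 5 rose and 1 fell. The rises were led by H2-Q7 (log2 6.01, SE 1.55, from levels of 0.0793 to 5.71 CPM), H2-Q1 (3.08) and H2-Q4 (2.66). Of 12 loading complex and chaperone genes, Tapbpl rose (3.47, SE 0.248) and 6 fell, led by Erp29 (log2 fold change -1.70) and Pdia6 (-1.24). Psmb9 (2.83), Psme2 (2.16) and Psmb10 (1.83) led 7 risers of 15 in the cytosolic supply, where 2 fell, and Psmb8 rose by 1.04. Of the regulators 13 of 23 rose and 5 fell. Socs1 (5.43) and Irf1 (5.15) led, Rfx5 fell (log2 fold change -1.14), and Ciita stayed under 1 CPM in the mean of every group. Of 4 genes tested in the receptor list 3 rose, Lilrb4b by 4.12, Lilrb4a by 2.87 and Cd47 by 1.65, which are not all class I receptors. Between genotypes, 3 chaperone genes were called higher in unstimulated Akr1a1 KO, Pdia4 (1.57, SE 0.143, adjusted p = 0.00350), Pdia6 (1.39) and Pdia3 (1.05). They were named because they were the only calls in these 5 lists in that comparison, where 0.583% of all genes were called in either direction. After stimulation 0 genes of the lists were called, which is near the 0.286% of all genes. In the interaction, where 0.0204% of all genes were called, 1 gene of the lists was called. It was Pdia4, whose response was 3.99-fold lower in Akr1a1 KO (adjusted p = 0.0362), named as the single call.

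Genes outside the lists were ranked by how closely their levels followed the median of the 10 over the 8 group means, centred within each experiment on the log2 scale, among 8381 protein-coding genes with a mean log2 CPM over 3 in both experiments. Closest was Casp1, the inflammatory caspase, with a root mean square difference of 0.106 on the log2 scale, followed by Parp10 (0.167), Pnp (0.167), Nlrp3 (0.178) and Rabgef1 (0.191). Of the 10 genes themselves, B2m (0.0659) and H2-K1 (0.0758) lay nearest their common median, and Tap1 (0.926), Erap1 (0.866), H2-M3 (0.647) and H2-T23 (0.580) farthest. The ranking used these same levels, so the changes of the ranked genes describe it and are no separate result. Casp1 rose with stimulation by a log2 fold change of 3.40 in wildtype and 3.06 in iNOS KO libraries. Between stimulated iNOS KO and wildtype its log2 fold change was -0.50. It was -0.19 for Parp10, 0.16 for Pnp, -0.32 for Nlrp3 and -0.88 for Rabgef1.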

How the data were processed

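Per the labels and the study's methods, RNA was made into poly(A)-enriched libraries, reads with adaptors or low quality were removed, and the rest were aligned to mm10 with STAR. The counting tool and annotation version are not given in the sources used here. The authors deposited raw read counts per gene, 1 table per experiment, with 56748 genes. Genes with at least 10 counts over an experiment were tested, 18691 in the iNOS and 19569 in the Akr1a1 experiment, with edgeR 4.0.16 (TMM scaling, quasi-likelihood F test, 1 mean per group over 4 groups, Benjamini-Hochberg over all genes tested). Tests are two-sided and intervals cover 95%. CPM and CPM per kb were computed from the counts. Alternatives were DESeq2 1.42.0, its size factors in edgeR, other filters, only the groups compared, a replicate block, a fold limit and leaving out each library. The 10 genes and the gene lists were chosen with earlier results of these data known. Named list genes are the 3 largest called changes per list in stimulated iNOS KO against wildtype and in stimulation of wildtype, with Psmb8, Psmb9, Psmb10, Irf1, Rfx5, Ciita, Nos2 and Akr1a1 always named; 1 further gene of this rule is not reported here. Cell type markers were lists of macrophage, neutrophil, fibroblast, lymphocyte and dendritic cell genes. No 2 replicates agreed within sampling noise. Promoters are RefSeq windows of GRCm38.p6.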

Additional observations from a re-analysis of the deposited data

Results flagged for a closer look

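The response to stimulation differed between iNOS KO and wildtype libraries for 5 of the 10 genes by a test of the difference itself, the interaction term in edgeR with p-values adjusted by Benjamini-Hochberg. In this test 15.4% of all genes were called lower and 20% higher. The interaction on the log2 scale was -1.03 for H2-M3 (adjusted p = 2.90e-06), -0.38 for H2-K1 (adjusted p = 0.0396), -0.37 for Nlrc5 (adjusted p = 0.00981), -0.37 for Tap2 (adjusted p = 0.0185) and -0.35 for B2m (adjusted p = 0.00709). H2-K1 lost its call without any of several single libraries, each in turn, and Tap2 without the iNOS KO unstimulated library B. For Nlrc5 the interaction joined an unstimulated difference that was not firm with stimulated levels that overlapped. The groups held 2 or 3 libraries, too few to look for a library far from the others by gene.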

How the results depend on the processing

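Of 336 alternative counts of called genes, 312 stayed within 1.5 times the reported count, and of 1680 alternative values of single genes 1617 kept their direction and side of the threshold; no called value changed sign. With a fold limit of 1 on the log2 scale, the count lower in stimulated iNOS KO was 1, the count lower in the interaction 1, and those of unstimulated iNOS KO 0 lower and 0 higher. With edgeR's filterByExpr the interaction count was 8 and the unstimulated lower count 1. With no count filter 1 gene, H2-T23, was called higher in unstimulated Akr1a1 KO (log2 fold change 0.71, adjusted p = 0.00212) and 1, again H2-T23, lower in that interaction (-0.85, adjusted p = 0.0425); the cause was not tested. Leaving out 1 library at a time gave 0 to 1 higher and 0 to 2 lower in unstimulated iNOS KO and 3 to 8 lower in the interaction.

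Over all groups replicate letters did not pair the libraries: correlations of deviations between same-lettered libraries ran from -0.519 to 0.498 in the iNOS and -0.161 to 0.423 in the Akr1a1 experiment. Within genotypes, unstimulated and stimulated iNOS KO libraries of the same letter correlated at 0.405 (A), 0.498 (B) and 0.118 (C). In the wildtype libraries labelled BMDM the values were -0.128 (A), -0.267 (B) and 0.094 (C), and in RAW264.7 0.423 in wildtype and 0.178 in Akr1a1 KO. Libraries of different letters could correlate as highly, as did iNOS KO unstimulated A and stimulated C (0.404). A replicate block, 1 effect per letter over all 4 groups, left the 10 genes higher after stimulation in each genotype of both experiments. With it, 0 genes were higher in unstimulated iNOS KO (Nlrc5, adjusted p = 0.0506) and Tap1 joined the interaction calls (adjusted p = 0.0476). The common dispersion was 0.0522 in the Akr1a1 and 0.00845 in the iNOS experiment, with 2 against 3 libraries per group.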
